A study of Homo sapiens with 6 samples.

Results

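Transformed spheres were compared with blebbishields, the state that the same cells pass through on the way to a sphere. Both carry the name RT4P and came from RT4, a human urinary bladder cancer cell line. Blebbishields are the remnants that apoptotic cells leave when their blebs fuse instead of breaking apart, and some of them can go on to form spheres that resume growth. The spheres had been exposed to 1 uM cisplatin with 20 mM lithium chloride for 24 h, had then transformed for a further 4 h and had been purified as spheres. The blebbishields had been exposed to the same cisplatin and lithium chloride for the same 24 h, and that sample mixed blebbishields able to form spheres with others that were not. The comparison therefore holds the drug treatment in common and differs by the transformation time and by the purification, which cannot be told apart here. It used 2 of the 6 samples of the series, each on 1 Illumina HumanHT-12 version 4 bead array of total RNA. Untreated live RT4P cells, also on 1 array, are given beside them for orientation.

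Each group rests on 1 array, so the differences lack any replicate check and carry no p-value. A gene counted as measured if either array detected its probe with a detection p-value under 0.01. Of 14183 such genes, 11174 were detected on both arrays, 2498 on the sphere array only and 511 on the blebbishield array only. "Signal" below is the non-normalized intensity, "level" is the background-corrected and quantile-normalized signal on the log2 scale, and a difference is the sphere level minus the blebbishield level. Higher and lower are used of differences that reached 2-fold. For genes that only 1 array detected, "at least" marks a fold against the detection limit of the other array. It is a minimum on the quantile-normalized scale alone, and other scalings or the plain ratio of signals can be smaller. The 729 genes with a lower detection p-value between 0.005 and 0.01 had a median level of 5.12 on the brighter array, and 333 genes just outside the limit, up to 0.015, had a median of 5.00.

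The blebbishield array was dim. The sphere array detected 17593 of 47322 probes with a mean signal of 389.2, and the blebbishield array detected 14749 with a mean signal of 263.2. The other 4 arrays detected 15788 to 17271. All 14 urothelial markers, among them the keratin genes KRT8 and KRT18, the adhesion gene EPCAM and the uroplakin genes, were detected on both arrays, and none differed by 2-fold. Their summed linear level was 42297 in spheres and 32743 in blebbishields. Of 10 leukocyte markers, 4 were measured, with a summed linear level of 380 in spheres and 1116 in blebbishields. CD68 made up most of both sums, and its second probe pointed the other way. The pan-leukocyte gene PTPRC and the T cell genes CD3D and CD3E were detected on neither array, and no fibroblast marker was. In bulk RNA, a smaller share of cells expressing a gene and less of its RNA per cell cannot be told apart.

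Of the 14183 genes, 430 were at least 2-fold higher in spheres, 3.03% of those measured, and 854 were at least 2-fold lower, 6.02%. Counts in the gene lists below stand against these shares. Only 43 higher and 134 lower genes reached 4-fold. These counts belong to a scaling that gives all arrays the same distribution. Without between-array normalization the median difference of all genes was 0.76 and 4630 genes were higher against 205 lower, 32.6% and 1.45% of those measured. With arrays shifted to equal medians over all probes, the median difference of detected genes was still 0.59, with 3189 higher and 285 lower. Higher genes made up 33.5% of the genes past 2-fold after quantile normalization, 95.8% with no between-array normalization, 91.8% after the shift of medians, and 20.9% when medians were equalized over the probes that both arrays detected. The direction of small differences thus depended on the scaling, and every difference below is relative to the typical gene unless stated otherwise.

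**Figure D1:**
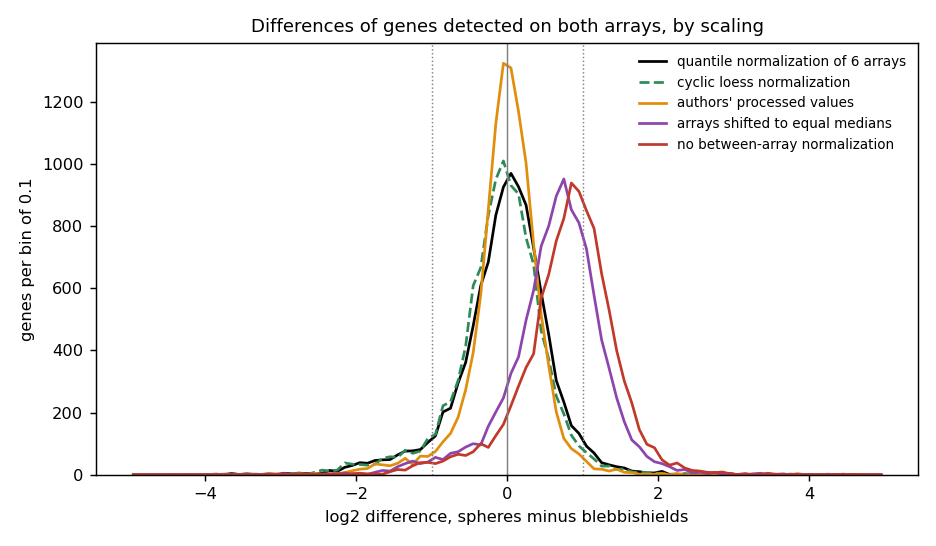
Distribution of log2 differences (x axis) over the 11174 genes detected on both arrays, as genes per bin of 0.1 (y axis), under 5 scalings. Quantile normalization, cyclic loess and the authors' values centre near 0, and the other 2 scalings lie to the right, with medians over all measured genes of 0.59 after the shift to equal medians and 0.76 with no between-array normalization.

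Calls that did not depend on this choice were counted under 5 scalings: quantile normalization, cyclic loess, the authors' processed values, equal medians, and arrays left without between-array normalization. There, 153 genes (1.08% of those measured) were at least 2-fold higher in spheres under all 5, and 194 (1.37%) were at least 2-fold lower under all 5. These are 35.6% of the higher and 22.7% of the lower genes. As a gauge of measurement spread, the differences from a gene's 2 brightest probes had a probe SD of 0.41 over 3194 genes. Of 305 genes with a second probe and a difference of 2-fold, 246 had the second probe in the same direction.

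Levels in live RT4P cells were set beside these genes. Of the 854 genes lower in spheres, 735 (86.1%) had a live-cell level nearer to that of spheres than to that of blebbishields. Of the 430 higher genes this held for 211 (49.1%), and of all 14183 for 59.1%. Live cells lay below both samples for 529 of the 854 lower genes, against 5000 of all 14183. These 529 were thus above live cells in spheres and further above them in blebbishields. The choice of genes by their difference bears on these shares, and no test of them was run.

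**Figure D2:**
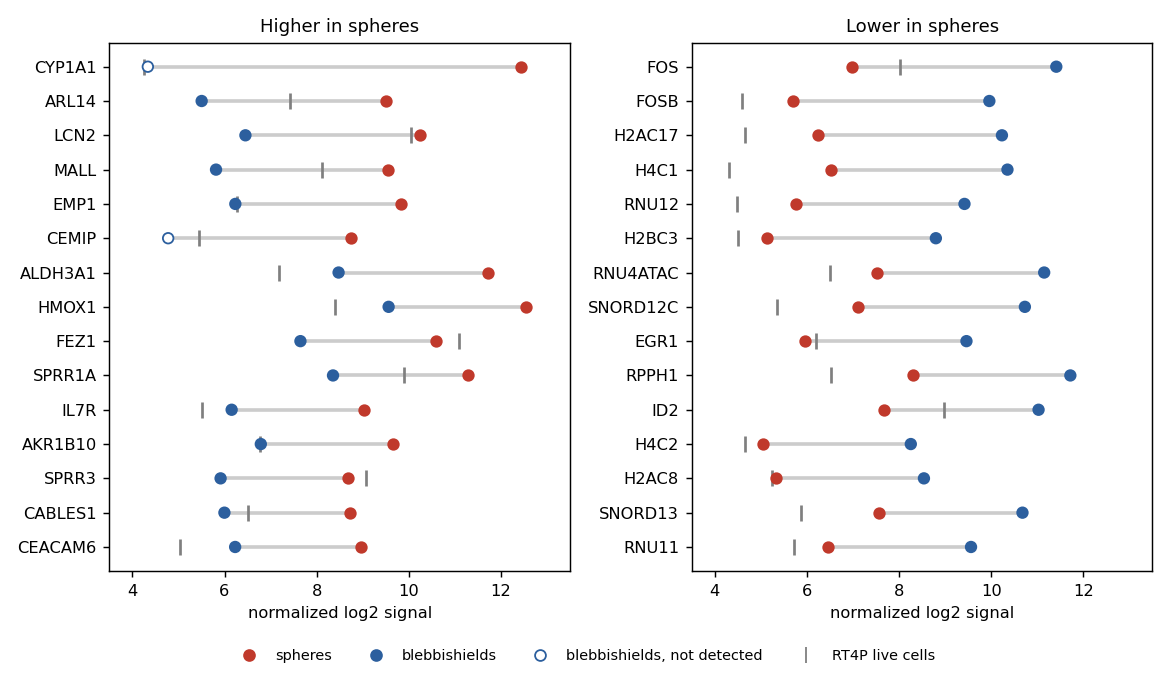
Normalized log2 signal (x axis) of the 15 genes with the largest difference in each direction, in spheres (red), blebbishields (blue, open where not detected) and live RT4P cells (grey bar). FOSB, H4C1 and RNU12 sit lowest in live cells, intermediate in spheres and highest in blebbishields, whereas FEZ1 and SPRR3 are as high in live cells as in spheres.

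The largest difference belonged to an enzyme of xenobiotic metabolism. The aryl hydrocarbon receptor, AHR, is a ligand-activated transcription factor that pairs with ARNT and switches on CYP1 family genes, whose products oxidize planar aromatic compounds. CYP1A1 had a signal of 6313 in spheres, against 82.5 in blebbishields, where it was not detected, and 87.7 in live cells. It was at least 125-fold higher in spheres after quantile normalization, with a lowest difference of 5.55 over the 5 scalings, and live cells did not give a detected signal either. Its relatives were likewise detected in spheres and in neither other sample. CYP1A2 had a signal of 321 in spheres and 81.8 in blebbishields, at least 4.58-fold higher, and CYP1B1 had 280 in spheres and 87.9 in blebbishields, at least 3.79-fold higher. Their lowest differences over the 5 scalings were 1.22 and 1.02. The aldehyde dehydrogenase ALDH3A1, a shared target of AHR and other factors, had 3924 in spheres against 287 in blebbishields and 239 in live cells. Of 12 measured genes of the AHR axis, 5 were higher and 0 lower, 4 of them under all 5 scalings. The remaining 7, the receptor among them, were under 2-fold. The level of AHR was 11.43 in spheres and 12.26 in blebbishields, a difference of -0.84, but its second probe pointed the other way. ARNT had a difference of -0.24 and TIPARP, a feedback inhibitor that AHR induces, -0.58. The list's median difference was 0.72 and became -0.17 when only genes detected on both arrays were kept, since that drops all 3 CYP1 genes.

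NRF2 is a transcription factor held down by KEAP1 and released by oxidants and electrophiles, and its targets make glutathione, recycle thioredoxin, supply NADPH and store iron. Of 25 measured targets, 12 were at least 2-fold higher in spheres, 0 were lower, and MAFG alone of the 25 was not above 0. The median difference was 0.98, ran from 0.81 to 1.73 over the 13 alternatives, and 8 of the 12 held under all 5 scalings. HMOX1, heme oxygenase 1, which breaks down heme, had a signal of 6718 in spheres, 537 in blebbishields and 451 in live cells, 7.87-fold higher. AKR1B10, a reductase of reactive aldehydes, had 1008 in spheres and 141 in blebbishields. Spheres were the high sample in both, and the AKR1B10 level was 6.79 in blebbishields and 6.76 in live cells. In the glutathione branch, SLC7A11, the cystine importer, was 4.05-fold higher, GCLC, the catalytic subunit of the enzyme for the first step of glutathione synthesis, was 2.88-fold higher by both of its probes, and its partner GCLM had a difference of 0.90. In the thioredoxin branch, SRXN1, which repairs oxidized peroxiredoxins, was 2.95-fold higher and TXNRD1, thioredoxin reductase, 2.26-fold. NQO1, a quinone reductase at a signal of 10735 in spheres and 3270 in blebbishields, was 2.17-fold higher. Among genes that supply NADPH, PGD and ME1 had differences of 1.13 and 1.08. Of the regulators, NFE2L2, which encodes NRF2, had a difference of -0.17 and KEAP1 one of 0.05. The small Maf gene MAFF was 2.23-fold lower by its brighter probe, and its second probe pointed the other way.

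Iron handling overlaps with this set. Of 14 heme and iron genes, 5 were higher and 0 lower. The ferritin genes FTH1 and FTL, which encode the subunits of the iron store, were 2.73-fold and 2.11-fold higher, and SLC40A1, the iron exporter ferroportin, had a signal of 807 in spheres and 229 in blebbishields. The transferrin receptor gene TFRC, which serves iron uptake, had a difference of -0.44. FECH, which inserts iron into heme, was 2.26-fold higher by 1 of its 2 probes. The calls of FTL and FECH did not hold under all 5 scalings. LCN2, which binds iron-carrying siderophores, had a signal of 1480 in spheres, 129 in blebbishields and 1233 in live cells, so the blebbishield sample was the low one.

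Metallothioneins are small cysteine-rich proteins that bind zinc, copper and other metals, and the factor MTF1 induces them through metal response elements. MT1A had a signal of 386 in spheres, 106 in blebbishields and 191 in live cells. MT1X had 471 in spheres, 124 in blebbishields and 143 in live cells, a difference of 2.07. MT2A had 303 in spheres and 103 in blebbishields, where it was not detected. These 3 and MT1F made 4 of the 7 measured genes of this list, with 0 lower, and MT1F alone of them was under 2-fold in the authors' values. SLC30A1, a zinc exporter that MTF1 also induces, had a difference of -0.23 and MTF1 itself one of 0.26. The list's median of 1.78 ran from 0.43 to 2.40 over the alternatives. The 250 bases before the start sites of MT1X and MT2A are shown because both genes carry many matches to the core of the metal response element, TGCGCNC or TGCACNC on either strand, marked in capitals. MT1X had 4 matches and MT2A had 7. Of all 27305 promoters in RefSeq's table for GRCh38.p14, 24.7% held at least 1 in the same window, so single matches are common. MT1X lies on the plus strand at chr16:56682220-56682469 and MT2A on the plus strand at chr16:56608334-56608583.
MT1X: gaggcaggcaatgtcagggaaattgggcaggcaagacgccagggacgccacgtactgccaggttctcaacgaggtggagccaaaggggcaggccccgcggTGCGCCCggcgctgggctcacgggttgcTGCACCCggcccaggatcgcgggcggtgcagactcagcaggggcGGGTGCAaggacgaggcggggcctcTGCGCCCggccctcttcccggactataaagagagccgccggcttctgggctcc
MT2A: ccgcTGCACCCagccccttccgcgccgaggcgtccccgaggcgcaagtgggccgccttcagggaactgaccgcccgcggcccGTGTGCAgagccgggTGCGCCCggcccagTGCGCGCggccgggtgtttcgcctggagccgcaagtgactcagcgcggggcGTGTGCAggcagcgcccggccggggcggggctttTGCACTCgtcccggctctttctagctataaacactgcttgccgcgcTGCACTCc

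Genes of the epithelial surface came next. ARL14, a small GTPase of the ARF family, had a signal of 919 in spheres, 105 in blebbishields and 267 in live cells. MALL, a MAL-related protein of membrane rafts, had 939 in spheres, 111 in blebbishields and 384 in live cells. EMP1, an epithelial membrane protein, had 1130 in spheres, 121 in blebbishields and 165 in live cells. Blebbishields had the lowest signal in each, although the EMP1 level was near that of live cells. In the EMP and MAL list 3 of 11 were higher, the third being PLLP, plasmolipin, and the median was 0.08, so the large values belong to single members. CEACAM6, an adhesion molecule, had 665 in spheres, 121 in blebbishields and 116 in live cells, and MUC1, a membrane mucin, was 2.28-fold higher. In the authors' processed values PLLP and MUC1 were under 2-fold.

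HAS3, a hyaluronan synthase, had a signal of 2630 in spheres, 313 in blebbishields and 1424 in live cells, 5.47-fold higher by its brightest probe. CEMIP, which takes part in hyaluronan breakdown, had 581 in spheres and was not detected in blebbishields. The hyaluronan receptor gene CD44 had 3478 in spheres and 650 in blebbishields, with all 3 probes in the same direction. The laminin genes LAMB3 and LAMA3, whose products anchor epithelium to its basement membrane, were 2.26-fold and 2.19-fold higher, LAMA3 not under all 5 scalings. The integrin genes ITGA6 and ITGB4 had differences of 0.04 and 0.50. Among 19 integrin, laminin and collagen genes, 5 were higher, 0 lower and the median was 0.10.

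Squamous differentiation genes were read as a list. SPRR1A and SPRR3, precursors of the cornified envelope, had signals of 2992 and 564 in spheres, 271 and 113 in blebbishields and 1126 and 671 in live cells. SPRR1B was 2.16-fold higher but under 2-fold in the authors' values, whereas KRT16 and KRT13 had differences of 0.59 and 0.78 and KRT17 one of -0.19. Of 9 measured genes, 3 were higher and 0 lower. Among 16 measured keratin genes, KRT23 (at least 4.19-fold) and KRT15 (at least 2.45-fold) were higher and 0 lower. Their differences in the authors' values were 1.13 and 0.62, so the KRT15 call ended there. Luminal urothelial genes gave 1 of 19 higher, PSCA, a surface antigen of the bladder, and 1 lower, FGFR3, the growth factor receptor often activated in bladder tumours, at a signal of 1023 in spheres and 1515 in blebbishields. Neither call held under all 5 scalings. The remaining luminal genes, KRT20, PPARG and GATA3 among them, were under 2-fold. In the junction list the claudin genes CLDN4 and CLDN1 were 2.77-fold and 2.07-fold lower and no gene was higher. Without between-array normalization both calls ended, and 10 of the 20 junction genes were higher and 0 lower. On that scale 32.6% of all genes were higher, and the list's median was 0.99 against 0.76 for all genes.

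Of 15 retinoid genes, 3 were higher in spheres and 0 lower, with a median of 0.17. ALDH1A3, which makes retinoic acid from retinaldehyde, had a signal of 10678 in spheres, 1290 in blebbishields and 1141 in live cells. DHRS9, which oxidizes retinol, had 2546 in spheres, 357 in blebbishields and 166 in live cells. ALDH1A1 had 1328 in spheres, 291 in blebbishields and 111 in live cells, where its level was near the bottom of the range. All 3 held under the 5 scalings. The remaining 12 were under 2-fold, including RDH10, which oxidizes retinol, at 0.72, and the receptor genes RARA and RXRA.

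FOS and JUN family proteins form AP-1, and their genes are switched on within minutes of growth factor or stress signals and off again soon after. FOS had a signal of 229 in spheres, 1887 in blebbishields and 364 in live cells. FOSB had 144 in spheres, 691 in blebbishields and 104 in live cells. EGR1, a zinc finger factor of the same early class, had 156 in spheres, 507 in blebbishields and 161 in live cells. Spheres were thus nearer to live cells than to blebbishields in all 3, and blebbishields were high on an array that was dim. JUNB and JUN were 3.24-fold and 2.52-fold lower, ATF3 at least 4.76-fold and CCN1 lower too. ATF3 had signals of 115.3 in spheres and 164.9 in blebbishields, and its smallest difference over the 5 scalings was -1.09. In total 7 of 22 early genes were lower and 1 higher. For JUNB, JUN and CCN1 the 2-fold call ended without between-array normalization, where 4 of the 22 stayed lower. The exception was KLF4, an epithelial differentiation factor, which was 2.07-fold higher in spheres but under 2-fold in the authors' values. MYC had a difference of 0.53. The list's median was -0.29 and turned to 0.57 without between-array normalization, so the list as a whole had no settled direction.

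The phosphatase DUSP1, which switches off stress-activated kinases and is itself an early gene, was 6.57-fold lower, with a signal of 192 in spheres, 446 in blebbishields and 268 in live cells. Other feedback inhibitors of the ERK pathway differed less. DUSP6, the ERK phosphatase, had a difference of -0.41, SPRY2 one of -0.89 and SPRY4 one of -0.39, and ERRFI1, an EGF receptor inhibitor, was 2.03-fold lower only after scaling. ID2, an inhibitor of differentiation factors, had 322 in spheres, 1400 in blebbishields and 630 in live cells by the brighter of 2 agreeing probes. The promoters of EGR1 and DUSP1 are shown for elements known to serve early induction. In EGR1 the capitals mark 2 matches to the CArG box, the site of serum response factor, found in 1.14% of all promoters. In DUSP1 they mark the 1 match to the cyclic AMP response element TGACGTCA, found in 1.77%. Each motif was searched on both strands, and no match overlapped one of another motif. The whole early gene list was searched in the same way, and 2 of 16 early genes with a promoter in the table held a CArG box in this window. The cyclic AMP response element was found in 0 of 6 lower early genes and in 1 of the 10 that were not lower. Among ERK feedback genes 1 of 10 held it, DUSP1 itself. EGR1 lies on the plus strand at chr5:138465229-138465478 and DUSP1 on the minus strand at chr5:172771196-172771445.
EGR1: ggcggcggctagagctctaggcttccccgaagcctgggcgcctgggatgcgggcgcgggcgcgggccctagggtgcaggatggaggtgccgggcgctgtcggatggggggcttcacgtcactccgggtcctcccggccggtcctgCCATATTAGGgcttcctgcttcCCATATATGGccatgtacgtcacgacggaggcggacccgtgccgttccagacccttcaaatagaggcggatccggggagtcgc
DUSP1: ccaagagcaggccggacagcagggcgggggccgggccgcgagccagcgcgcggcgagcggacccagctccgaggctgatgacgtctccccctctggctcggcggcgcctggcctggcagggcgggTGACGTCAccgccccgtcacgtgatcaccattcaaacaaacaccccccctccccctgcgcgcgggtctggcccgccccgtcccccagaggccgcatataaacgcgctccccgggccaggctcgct

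ATF4 is made when translation slows under amino acid shortage or other stress, and it drives amino acid supply genes as well as regulators that end the response or push cells toward death. Of 25 measured genes, 11 were at least 2-fold lower in spheres and 2 higher, with a median of -0.79 that stayed below 0 in all 13 alternatives (-1.04 to -0.11). Several regulators were lower. DDIT3, which encodes the pro-apoptotic factor CHOP, had a signal of 268.5 in spheres, 808 in blebbishields and 316 in live cells. DDIT4, an inhibitor of mTORC1, had 1434 in spheres, 5460 in blebbishields and 2837 in live cells. TRIB3, a pseudokinase that restrains ATF4, was 3.42-fold lower, PPP1R15A, the phosphatase subunit that restores translation, 3.28-fold, and ATF4 itself 2.95-fold with all 3 probes in the same direction. Of these, DDIT3 and DDIT4 held under all 5 scalings. Supply genes were mixed. Asparagine synthetase ASNS and the cystine importer SLC7A11 were higher, MTHFD2 of mitochondrial folate metabolism was lower with a difference of -1.39, and PHGDH and SHMT2 of serine and glycine synthesis and the transporter SLC7A5 had differences of 0.43, 0.06 and 0.22. PSAT1 and PSPH, also of serine synthesis, had -0.79 and -0.82. The folding branch of endoplasmic reticulum stress was flat after quantile normalization: 0 of 16 chaperone and related genes passed 2-fold in either direction, with HSPA5, the chaperone BiP, at 0.17. Without between-array normalization 10 of the 16 were higher, against 32.6% of all genes. Their median there was 1.13, against 0.76 for all genes. In the cytosol, the stress-induced HSP70 genes HSPA1A and HSPA1B were 2.85-fold and 2.87-fold higher, and the remaining 14 heat shock genes were under 2-fold. The HSPA1A and HSPA1B transcripts are nearly identical, so their probes may not be independent.

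**Figure D3:**
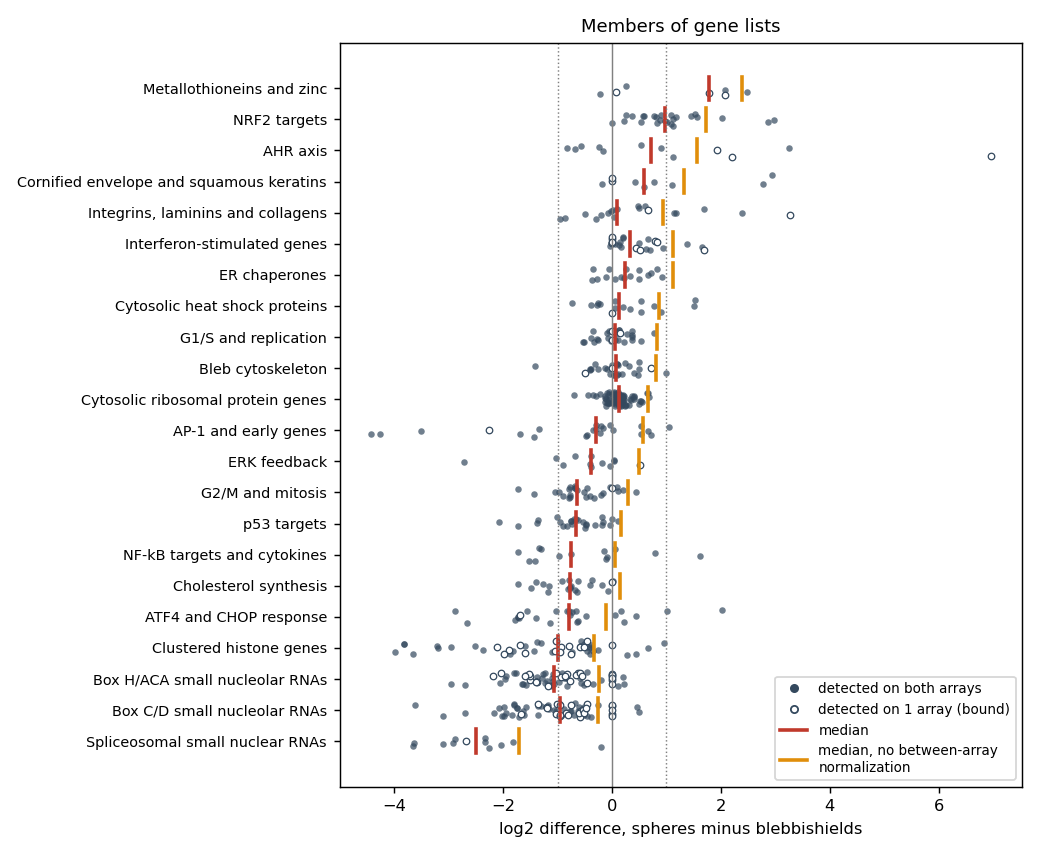
Log2 difference (x axis) of each measured member of 22 gene lists (rows), filled where both arrays detected it and open where the value is a bound, with the median after quantile normalization (red) and without between-array normalization (orange). Medians of small RNA, histone and ATF4 lists stay below 0 on both scales, and those of cholesterol, NF-kB, p53, G2/M, ERK feedback and early genes change sign.

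The p53 targets, read because cisplatin damages DNA, gave 5 of 25 lower in spheres and 0 higher, with a median of -0.66 that turned to 0.17 without between-array normalization. GADD45B, ZMAT3 and PMAIP1, the last encoding the pro-apoptotic protein NOXA, had differences of -2.07, -1.37 and -1.37. CDKN1A, the cell cycle inhibitor p21, had a signal of 6015 in spheres, 8041 in blebbishields and 4613 in live cells and was 2.03-fold lower after scaling. MDM2, which degrades p53, had signals of 192 in spheres and 181 in blebbishields, a difference of -0.96 that was -0.04 without between-array normalization. Within this list as drawn up, only GADD45B held under all 5 scalings. Its signals were low, 136 in spheres and 186 in blebbishields, where undetected probes had medians of 96.5 and 82.8. The calls of ZMAT3, PMAIP1, CDKN1A and SESN2 did not, and SESN2 is also counted in the ATF4 list. The activity of p53 was not tested. Of 25 genes for platinum transport and repair of platinum adducts, 0 passed 2-fold, the import gene SLC31A1 standing at -0.11 and the excision nuclease gene ERCC1 at 0.59.

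Of 31 apoptosis effectors and inhibitors, 1 was higher, 2 were lower and the median was 0.02. Among all genes 3.03% were higher and 6.02% lower. XIAP, which blocks caspases, was at least 2.07-fold higher, at a signal of 190 in spheres and 102 in blebbishields. BIRC3, another member of its family, was 2.89-fold lower by its brighter probe, and its second probe disagreed. BAX, which permeabilizes mitochondria, had a difference of -0.70, and its second probe disagreed. Among genes tied to bleb fusion and movement, 1 of 27 endocytosis and vesicle fusion genes was higher, CAV2, and 1 lower, EEA1. Of 28 actin and myosin genes 0 were higher and TPM2 was lower, with ROCK1, the kinase that drives blebbing, at 0.49. Of 15 Ras and Ral genes only RGL1 was past 2-fold, at a signal of 161 in spheres and 158 in blebbishields, and the differences of NRAS and RALA were 0.94 and 0.71. None of these calls held under all 5 scalings, and the counts in these lists did not stand out from the shares of all genes.

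Inflammatory genes divided. The cytokine and chemokine genes IL1A, IL1B, CXCL8 and CXCL1 were 3.30-fold, 2.49-fold, 2.66-fold and 2.52-fold lower in spheres. All 4 calls ended without between-array normalization, where differences ran from -0.78 for IL1A to -0.38 for IL1B. The IL1A signal was 297 in spheres, 436 in blebbishields and 1057 in live cells. SOD2, the mitochondrial superoxide dismutase and also an NF-kB target, was 3.07-fold higher by both probes. The NF-kB list gave 5 of 13 lower and 1 higher, and its median of -0.75 turned to 0.06 without between-array normalization. The inhibitor gene NFKBIA, a fast NF-kB target, had a difference of -0.10. In contrast, the secreted defence genes S100A9 and DEFB1 were 3.53-fold and 2.93-fold higher. Interferon-stimulated genes gave 3 of 24 higher and 0 lower: MX1 and OAS1, which act against viral RNA, and ISG20, at least 3.23-fold but under 2-fold in the authors' values. Their signals were lowest in blebbishields, as in MX1 with 506 in spheres, 144 in blebbishields and 1075 in live cells. For MHC class I genes 0 of 13 passed 2-fold, with a median of 0.52 (0.40 to 1.38 over the alternatives) and with HLA-E at 0.95. IL7R, the receptor for interleukin 7, had 693 in spheres, 119 in blebbishields and 131 in live cells, with both probes in the same direction.

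Cell cycle genes were read by phase. Of 28 genes of G1/S and DNA replication, 0 passed 2-fold and the median was 0.05. Of 27 genes of G2/M and mitosis, 3 were lower and 0 higher: the centromere gene CENPA, the spindle gene DLGAP5 and the kinesin gene KIF2C. The G2/M median of -0.65 turned to 0.29 without between-array normalization. DLGAP5 had a signal of 281 in spheres, 347 in blebbishields and 886 in live cells, so both treated samples were below live cells. Cholesterol synthesis genes gave 6 of 21 lower and 0 higher, with a median of -0.77 that turned to 0.15 in the same way. HMGCS1, an early enzyme of the pathway, had a signal of 722 in spheres, 845 in blebbishields and 2135 in live cells. None of the G2/M and cholesterol calls held under all 5 scalings. In the hypoxia and glycolysis list 3 of 25 were lower, among them the peptide hormone gene ADM, and 1 was higher, EGLN3, an oxygen sensor, at 477 in spheres and 134 in blebbishields.

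Among genes associated with stem cells, 4 of 12 were higher and 3 lower. ALDH1A3, ALDH1A1, CD44 and KLF4 were the higher ones, as given above. The transcription factor genes SOX9, SALL4 and SOX2 were lower, with signals of 169, 132 and 128 in spheres and 266, 169 and 133 in blebbishields. SOX9 and SALL4 held under all 5 scalings, whereas SOX2 did not.

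Small non-coding RNA genes were often lower in spheres. Small nuclear RNAs build the spliceosome, small nucleolar RNAs guide the modification of ribosomal RNA, and Cajal body RNAs guide that of small nuclear RNAs, and none of these carries a poly(A) tail in its mature form. With 12 small RNA genes of other kinds, such as RPPH1 and RN7SK, 174 were measured. Of the 174, 92 were at least 2-fold lower and 0 higher, against the 6.02% lower among all genes. Both arrays detected 117 of the 174, spheres alone 13 and blebbishields alone 44, against 511 of all 14183 genes on blebbishields alone. The 44 were measured only through the array where they were high, so their bounds could not come out higher. Of the 92, 30 were lower under all 5 scalings. Without between-array normalization 122 of 174 still lay below 0, where 9.98% of all genes did. The bounds of the 44 could not lie above 0 there either, so the 122 is no independent check for them. Of the spliceosomal RNAs, 11 of 12 were lower, all 11 under the 5 scalings, with a median of -2.51 (-2.64 to -1.71 over the alternatives). The minor spliceosome RNAs RNU12, RNU4ATAC, RNU11 and RNU6ATAC had signals of 146, 298, 186 and 189 in spheres and 491, 1537, 537 and 480 in blebbishields. RNU4-2 of the major spliceosome had 1360 in spheres, 6158 in blebbishields and 176 in live cells. RNU2-1 was the exception, with a difference of -0.20. The RNU1 genes are near-identical copies whose probes may share signal.

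Among 70 box C/D RNAs 33 were lower and 0 higher, and among 66 box H/ACA RNAs 35 were lower and 0 higher. Their medians were -0.96 and -1.07 and stayed below 0 in all 13 alternatives. Bounds made up 25 of the 70 and 25 of the 66 values. Over genes detected on both arrays the medians were -1.21 and -1.10. SNORD3A, the U3 RNA that acts in cleavage of ribosomal RNA, had a signal of 1893 in spheres, 5230 in blebbishields and 565 in live cells. SNORD12C had 246 in spheres, 1156 in blebbishields and 125 in live cells, and SNORA57 had 255 in spheres, 786 in blebbishields and 204 in live cells. Spheres lay between the other samples, nearer to live cells, in all 3. RPPH1, the RNA of ribonuclease P, which trims transfer RNA precursors, had 449 in spheres, 2342 in blebbishields and 181 in live cells. RN7SK, which restrains transcription elongation, was 4.43-fold lower by both probes. RN7SL1, the RNA of the signal recognition particle, was level at 13.85 in spheres and 13.84 in blebbishields. Protein-coding and host genes tied to these RNAs were mostly under 2-fold. Of 29 genes for making and processing small RNAs only SNAPC1, a subunit of the complex that starts small nuclear RNA transcription, was past 2-fold, 2.83-fold lower. Of 17 host genes that carry small nucleolar RNAs in their introns only SNHG9 was, 2.43-fold lower. Neither call held under all 5 scalings.

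**Figure D4:**
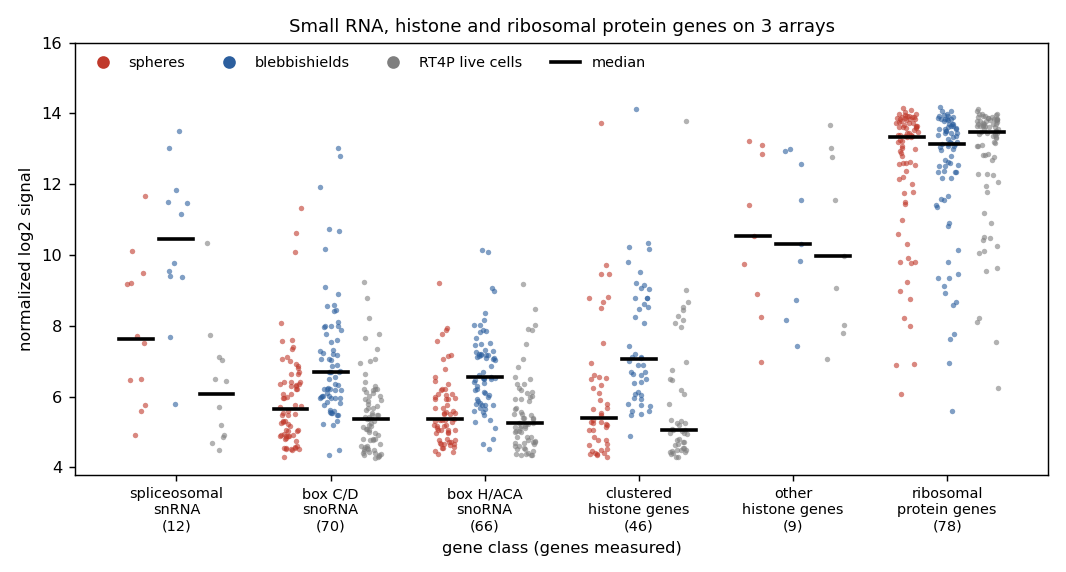
Normalized log2 signal (y axis) of each gene of 6 classes in spheres (red), blebbishields (blue) and live RT4P cells (grey), with the median as a black line. The blebbishield medians stand above the other 2 samples in the small RNA classes and the clustered histone genes, for example 10.46 for spliceosomal RNAs against 7.62 in spheres, and the samples are close in the remaining 2 classes.

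Histone genes separated by kind. The clustered genes are used in S phase to package new DNA and their messages end in a stem-loop in place of a poly(A) tail, while the remaining histone genes give ordinary polyadenylated messages at all times. Of 46 clustered genes, 23 were lower in spheres and 0 higher, with a median of -0.997 (-1.26 to -0.33 over the alternatives), and 10 held under all 5 scalings. Of 9 others, 0 passed 2-fold, with a median of 0.10. H2AC17 had a signal of 172 in spheres, 825 in blebbishields and 106 in live cells, H4C1 had 190 in spheres, 902 in blebbishields and 91.1 in live cells, and H2BC3 had 123.4 in spheres, 341 in blebbishields and 101 in live cells. All 4 core histone types were represented among the lower genes, with H3C1 at -2.96. H2BC12, H2BC5 and H1-2 lay on the other side, with differences of 0.95, 0.67 and 0.27, though the second probe of H2BC5 disagreed. Many clustered genes differ by a few bases, so a probe may read more than 1 of them. Of the 46, 15 were detected on 1 array only, 14 of them on blebbishields. Those 14 were measured only through the array where they were high, so their bounds could not come out higher. Over clustered genes detected on both arrays the median was -1.10. Ribosomal protein genes, whose messages are polyadenylated, gave 0 of 78 past 2-fold with a median of 0.12.

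The promoters of H2AC17 and H2BC3 are shown for the octamer ATTTGCAT, the site through which OCT1 acts on H2B genes, in capitals. It was searched on both strands and found in 1.66% of all promoters. Of 40 measured clustered histone genes that have an entry among the promoters, 12 held it, 7 of the 21 that were lower in spheres (33.3%) and 5 of the 19 that were not (26.3%). H2AC17 lies on the minus strand at chr6:27893186-27893435 and H2BC3 on the minus strand at chr6:26043714-26043963.
H2AC17: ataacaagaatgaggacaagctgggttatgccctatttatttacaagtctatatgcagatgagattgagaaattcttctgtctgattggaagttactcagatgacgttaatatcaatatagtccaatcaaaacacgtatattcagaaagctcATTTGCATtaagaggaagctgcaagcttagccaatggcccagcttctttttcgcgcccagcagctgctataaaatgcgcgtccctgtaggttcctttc
H2BC3: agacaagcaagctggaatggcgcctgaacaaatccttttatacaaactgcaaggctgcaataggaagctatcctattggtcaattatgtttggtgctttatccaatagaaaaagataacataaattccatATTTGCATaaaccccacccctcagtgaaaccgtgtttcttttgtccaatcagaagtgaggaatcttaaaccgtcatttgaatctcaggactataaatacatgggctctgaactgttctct

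Of 163 named genes past 2-fold, 92 were past it in the same direction under all 5 scalings. Many of them were picked for size or for steadiness over these scalings, which raises that share. Without such a choice it was 35.6% of the higher and 22.7% of the lower genes. Among genes detected on both arrays, which leaves out CYP1A1, the 10 in each direction with the largest smallest difference over the 5 scalings were taken. Upward these were LCN2, ALDH3A1, HMOX1, ARL14, EMP1, SPRR1A, MALL, FEZ1, AKR1B10 and HAS3. FEZ1, an adaptor for kinesin transport, had a signal of 1846 in spheres, 193 in blebbishields and 2474 in live cells with 4 probes in the same direction. LCN2 had a difference of at least 3.01 under each scaling. Downward they were FOS, H2AC17, FOSB, H4C1, RNU4ATAC, SNORD12C, RPPH1, RNU12, EGR1 and ID2. FOS lay between -4.64 and -3.65.

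**Figure D5:**
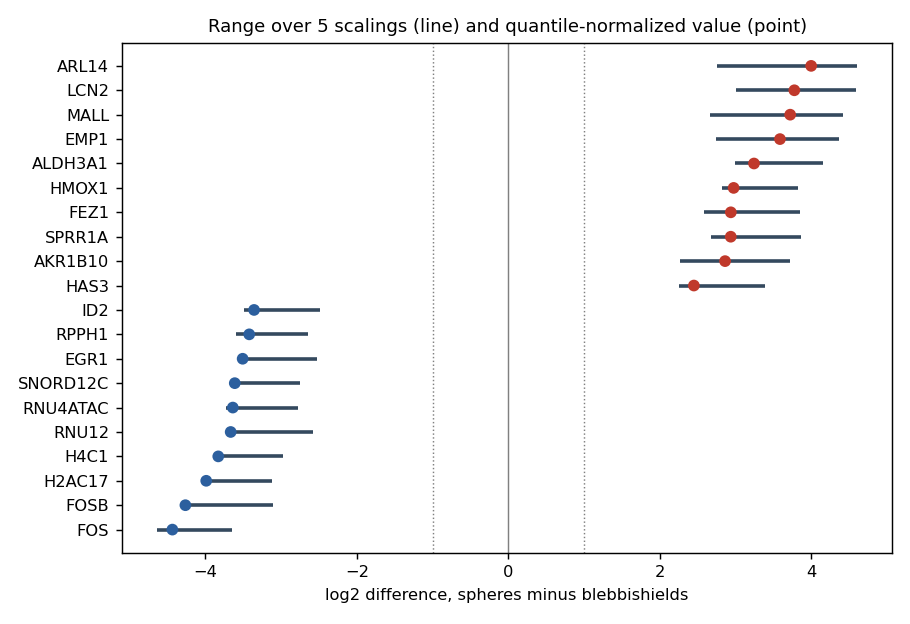
Log2 difference (x axis) of the 10 genes in each direction, among those detected on both arrays, whose smallest difference over 5 scalings was largest (rows), with the quantile-normalized value as a point and the range over 5 scalings as a line. All ranges lie beyond 2-fold (dotted lines), the nearest to 0 being that of HAS3, which starts at 2.26.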

How the data were processed

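Total RNA, extracted with the Ambion miRVANA reagent per the labels' protocols, was measured on 6 arrays, 1 per sample. The authors deposited non-normalized signal intensity for 47322 probes, each with a detection p-value, per the file headers. They also deposited processed intensity values. The submitters' processing notes name GenomeStudio without a version. With limma 3.58.1 in R 4.3.3, normexp used negative controls that limma infers from those p-values. An offset of 16 was then added, all 6 arrays were quantile normalized together, and log2 was taken.

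A gene took its brightest detected probe. A level below detection was raised to the lowest detected value of its array, and bounds did not cross 0. The offset understates folds of dim genes. Of 34694 names, 17590 were current RefSeq symbols and 2181 matched an older one, and 27 that had become dates were not used. Samples were grouped by label. With 1 array per group no test was run, and the number of arrays limits the precision. The steps were tested on simulated arrays.

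The members and gene lists were chosen with earlier results of these data known. Named genes were, per direction, the 15 largest differences among genes with a level of 8 or more on 1 array and agreeing probes, and the 10 detected on both arrays with the largest smallest difference over 5 scalings, with up to 6 members per list by size and members whose role is explained. Of 13 alternatives, equal medians over probes detected on both arrays was chosen after seeing the data. Some genes are not reported here.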

Additional observations from a re-analysis of the deposited data

How the results depend on the processing

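The counts of 430 higher and 854 lower genes moved by over 1.5 times under several alternatives. Higher genes numbered 3189 with arrays shifted to equal medians, 4630 with no between-array normalization, 649 with equal medians of ribosomal protein genes, 150 without background correction, 246 with an offset of 50, 683 with no detection filter and no bound, and 159 in the authors' processed values. Lower genes numbered 285 with equal medians, 205 with no between-array normalization, 424 without background correction, 558 with an offset of 50 and 432 in the authors' values. Both counts stayed within 1.5 times with quantile normalization of the pair alone, cyclic loess, a detection p-value under 0.05, detection on both arrays, averaging of each gene's probes and equal medians over probes detected on both arrays.

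Of the lists whose median exceeded the probe SD of 0.41, some changed sign. With no between-array normalization these were p53 targets (0.17), NF-kB targets (0.059), G2/M genes (0.29) and cholesterol synthesis (0.15), and with arrays shifted to equal medians p53 targets (0.007) and G2/M genes (0.13). The AHR axis stood at -0.17 over genes detected on both arrays, and the CEACAM and mucin list at -0.023 with no detection filter. None of the 163 genes past 2-fold that were picked by size, by steadiness or as largest of a list changed sign in any of the 13 alternatives. That outcome was nearly fixed in advance and is no check of these genes. They were picked in these same data for differences past 2-fold, and the median of all genes moved by at most 0.76. Genes named only for their role were not part of this count. Leaving out a replicate was not possible with 1 array per group. No paired analysis was possible because each group has 1 array. Low signal over background on the blebbishield array limits all folds of genes near detection.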

Other observations

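Numbered zinc finger genes gave 3 of 339 higher in spheres and 21 lower, and solute carrier genes 11 of 198 higher and 12 lower. The lower shares of both are near the 6.02% of all genes, and 3.03% of all genes were higher. SLC2A10, a glucose transporter, had a signal of 820 in spheres and 181 in blebbishields, and SLC5A8, a monocarboxylate transporter, had 138 in spheres and 226 in blebbishields. Of 31 aminoacyl-tRNA synthetase genes, WARS1 was 2.27-fold higher by both probes, and VARS2 and CARS1 were 2.53-fold and 2.16-fold lower. Of 67 long non-coding RNAs, 12 were lower and 0 higher. Among splicing factor genes SRSF7 was 2.33-fold higher, and HNRNPU was 4.31-fold lower by its brighter probe with a second probe in the other direction.

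Among leukocyte markers, FCGR3A had a signal of 132 in spheres and 184 in blebbishields, and CD68 had 392.2 in spheres and 585 in blebbishields, with a second CD68 probe in the other direction. VWF, an endothelial marker, had 284 in spheres and 276 in blebbishields. Their part in the other results was not tested. Names of unnamed transcript clusters made up 40 of the 854 lower genes and 8 of the 430 higher genes, against 653 of 14183. The median genomic span of protein-coding genes was 30.3 kb for the higher genes, 22.4 kb for the lower genes and 30.1 kb for all.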
